A study of Rattus norvegicus with 12 samples.

Results

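The collagens and the small leucine-rich proteoglycans of the extracellular matrix were followed in RNA of the rat striatum. The members were all collagen chain genes (symbols of the form Col, a number, a, a number) together with Dcn, Lum, Bgn, Fmod and Ogn. Of the 49 genes with such names in the symbol table, 24 matched a probe on the array, through 32 probes, and 23 of them entered the test among 19412 tested features, 11110 of which carried a gene symbol. The choice used gene names only and no measured value. Col13a1 was not above background on any array and was not tested. The remaining 25 genes, Col4a2 and Col6a1 among them, had no matched probe and were not analysed here.

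Male Wistar rats had received 6-hydroxydopamine (6-OHDA), a toxin that kills dopamine neurons. It was placed on the left side in the medial forebrain bundle, by which dopamine axons reach the striatum. A methamphetamine test (3 mg/kg) selected rats making 7 or more turns a minute, and treatment began 7 days after it, once a day for 7 days. Total RNA of the striatum was hybridised to 12 single-colour Agilent arrays in 4 groups of 3 numbered arrays. Saline was given to the groups that supplied the non-lesioned side and the lesioned side (lesioned saline). The other groups gave the lesioned side after L-DOPA (100 mg/kg) alone or together with zonisamide (50 mg/kg). L-DOPA, from which cells make dopamine, was preceded by benserazide, which blocks its conversion outside the brain, and zonisamide, an anticonvulsant that is also given for Parkinson's disease, followed L-DOPA by 30 min. All rats had the lesion and methamphetamine, so that the non-lesioned side is the other hemisphere of a lesioned rat and not tissue of an untreated one. Whether its arrays and those of lesioned saline share animals is not stated. Nothing in the labels says more about separate animals, so that the p values measure the spread between these samples. In whole striatum, fewer cells of a type and less RNA per cell cannot be told apart.

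Collagens are proteins of 3 chains wound into a triple helix. Fibrillar collagens form the fibres of connective tissue, basement membrane collagens (type IV) form the sheet under endothelial and epithelial cells, and the small leucine-rich proteoglycans bind to collagen fibrils and to growth factors of the TGF-beta family. In brain, collagen is made mainly by cells of the vessel wall and the meninges, and there is little of it between the neurons.

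The start regions of Col4a1 and Col1a2 are shown because these genes had the smallest p values among the members. The sequences are RefSeq's on build GRCr8, each running from 250 bases before to 50 bases after the annotated start, and 15 of the 23 tested genes had one in the table. Capitals mark matches, on either strand, to GGGCGG (a GC box), CCAAT and TATAAA, motifs which do not overlap in these windows. The Col4a1 window lies at chr16:84885347-84885646 on the plus strand and the Col1a2 window at chr4:33518307-33518606 on the plus strand.
Col4a1: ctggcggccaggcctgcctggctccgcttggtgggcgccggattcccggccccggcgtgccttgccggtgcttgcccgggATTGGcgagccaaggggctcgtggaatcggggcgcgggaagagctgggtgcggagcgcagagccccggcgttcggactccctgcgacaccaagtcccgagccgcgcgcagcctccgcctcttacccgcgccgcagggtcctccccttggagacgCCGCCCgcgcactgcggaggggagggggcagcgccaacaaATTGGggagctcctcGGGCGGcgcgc
Col1a2: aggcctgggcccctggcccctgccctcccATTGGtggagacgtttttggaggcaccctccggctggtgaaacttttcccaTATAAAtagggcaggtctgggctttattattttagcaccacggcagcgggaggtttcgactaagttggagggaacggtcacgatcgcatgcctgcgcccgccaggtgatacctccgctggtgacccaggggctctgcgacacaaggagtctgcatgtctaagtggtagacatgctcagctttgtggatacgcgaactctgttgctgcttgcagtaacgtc
The Col4a1 window held 2 GC boxes and 2 matches to CCAAT and no TATAAA. It shares 176 bases with the window of Col4a2, the gene of its partner chain, which is read in the opposite direction. The Col1a2 window held 1 CCAAT and 1 TATAAA and no GC box. A GC box stood in 33.1% of the 33469 windows of the table and in 9 of the 15 members with a window, CCAAT in 37.5% and in 5 of 15, and TATAAA in 14.2% and in 2 of 15. These are letter matches only.

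Levels are log2 of the array's processed signal minus the 75th percentile of that array, so that 0 is the level of a bright probe and each unit is a doubling. The 75th percentile lay between 793 and 1737 intensity units, and 67.6% to 74.0% of probes were well above background. The spread of replicate spots was over 20% on 5 of the 12 arrays. The 8 striatal neuron markers were above background on every array. Markers of the choroid plexus, the tissue in the ventricle that makes cerebrospinal fluid, stood far apart on 4 arrays. Their summed level (10 of 12 listed genes tested, in multiples of the 75th percentile) was 136 on replicate 3 of the non-lesioned side, 172 and 124 on replicates 2 and 3 of L-DOPA and 109 on replicate 3 of L-DOPA with zonisamide, against 1.18 to 21.3 on the other 8 arrays. None of the lesioned saline arrays was among the 4. Meningeal markers, at 10 of 15 tested, summed to 63.3 on replicate 3 of the non-lesioned side and 55.7 on replicate 2 of L-DOPA, against 20.9 to 33.6 elsewhere. Changes without these 4 arrays are given below beside those of some members.

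The collagen and proteoglycan genes did not pass the test in any of the 4 comparisons (limma, adjusted p under 0.05 over all features). On the lesioned side after saline, 0 of 23 passed against 0.00% of all features. With L-DOPA, 0 of 23 passed against 0.433% of all features, of which 64 were higher and 20 lower. With zonisamide added, 0 of 23 passed against 0.479%, of which 17 were higher and 76 lower, and with both drugs against lesioned saline 0 of 23 against 0.00%. In the zonisamide comparison same-numbered arrays share slides. With the replicate number as a block over all groups, 13 features passed there in place of 93, with 0 members. A joint test of any difference among the 4 groups was passed by 0 of 23 members and 0.273% of features. The smallest adjusted p of a member was 0.0605, for Col4a1 with zonisamide. With array weights, or without replicate 1 of L-DOPA, Col4a1 passed for both L-DOPA and zonisamide, and with slide as a random block for zonisamide.

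At an unadjusted p under 0.05 by limma, 2 of 23 members stood out on the lesioned side, both higher, against 8.48% of features. With L-DOPA 2 of 23 did, both higher, against 11.3%. With zonisamide added 4 of 23 did, all lower, against 12.4%. With both drugs 1 of 23 did, lower, against 7.34%. The 3 arrays of one group did not overlap with the 3 of the other for 6 members on the lesioned side (17.0% of features), 4 with L-DOPA (22.4%), 3 with zonisamide (17.3%) and 6 with both drugs (18.1%). With so few members, 1 or 2 genes separate these counts from the share of all features, and nothing is read from them about the members.

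The median log2 change of the 23 genes was -0.03 on the lesioned side, where that of all features was 0.05. It was 0.16 with L-DOPA against -0.03 for all features, -0.40 with zonisamide added against -0.03, and -0.15 with both drugs against -0.05. With zonisamide 18 of 23 genes were lower than with L-DOPA alone, against 10451 of all 19412 features. Of these features 10968 were lower with both drugs, 9075 were higher with L-DOPA and 10757 were higher on the lesioned side. The L-DOPA and zonisamide comparisons share the 3 L-DOPA arrays. The median moved with single arrays. Within slide 1 it was -0.05 for L-DOPA and -0.21 for zonisamide, within slide 2 it was 0.84 and -0.80, and within slide 3, which allows the zonisamide comparison, it was -0.06. Slide 2 carries replicate 2 of L-DOPA, which was the highest of the 12 arrays for 7 of 23 members and among the highest 3 for 14. Replicate 2 of L-DOPA with zonisamide, on the same slide, was among the lowest 3 for 13. Without the 4 arrays high in choroid plexus markers the medians were -0.02 for L-DOPA and -0.32 for zonisamide, where 1 L-DOPA array remains and is taken to vary like the other groups.

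**Figure D1:**
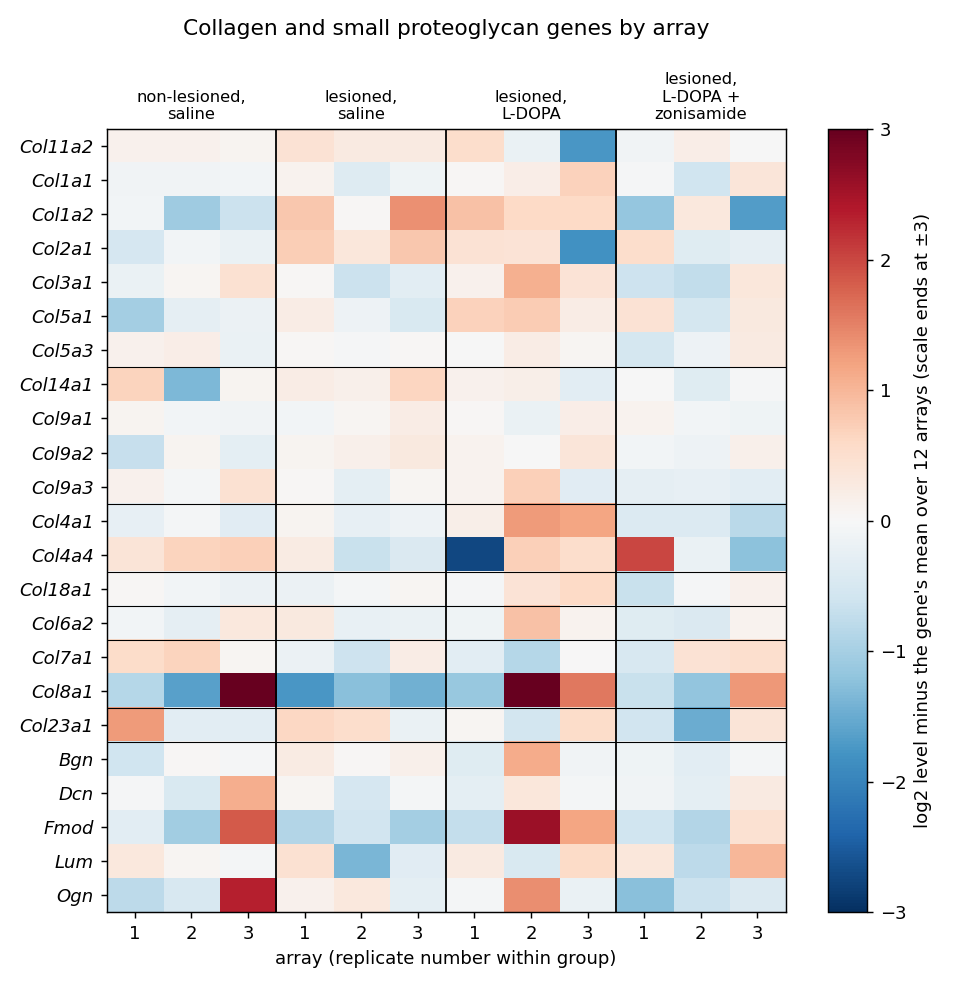
Heat map of the 23 tested genes (rows, by class, from fibrillar collagens at the top to small proteoglycans at the bottom) on the 12 arrays (columns, by group and replicate number). Colour is the log2 level minus the gene's mean over the 12 arrays, with the colour scale ending at ±3. Replicate 2 of L-DOPA and replicate 3 of the non-lesioned side are red for Fmod, Ogn and Col8a1, and replicates 2 and 3 of L-DOPA for Col4a1.

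**Figure D2:**
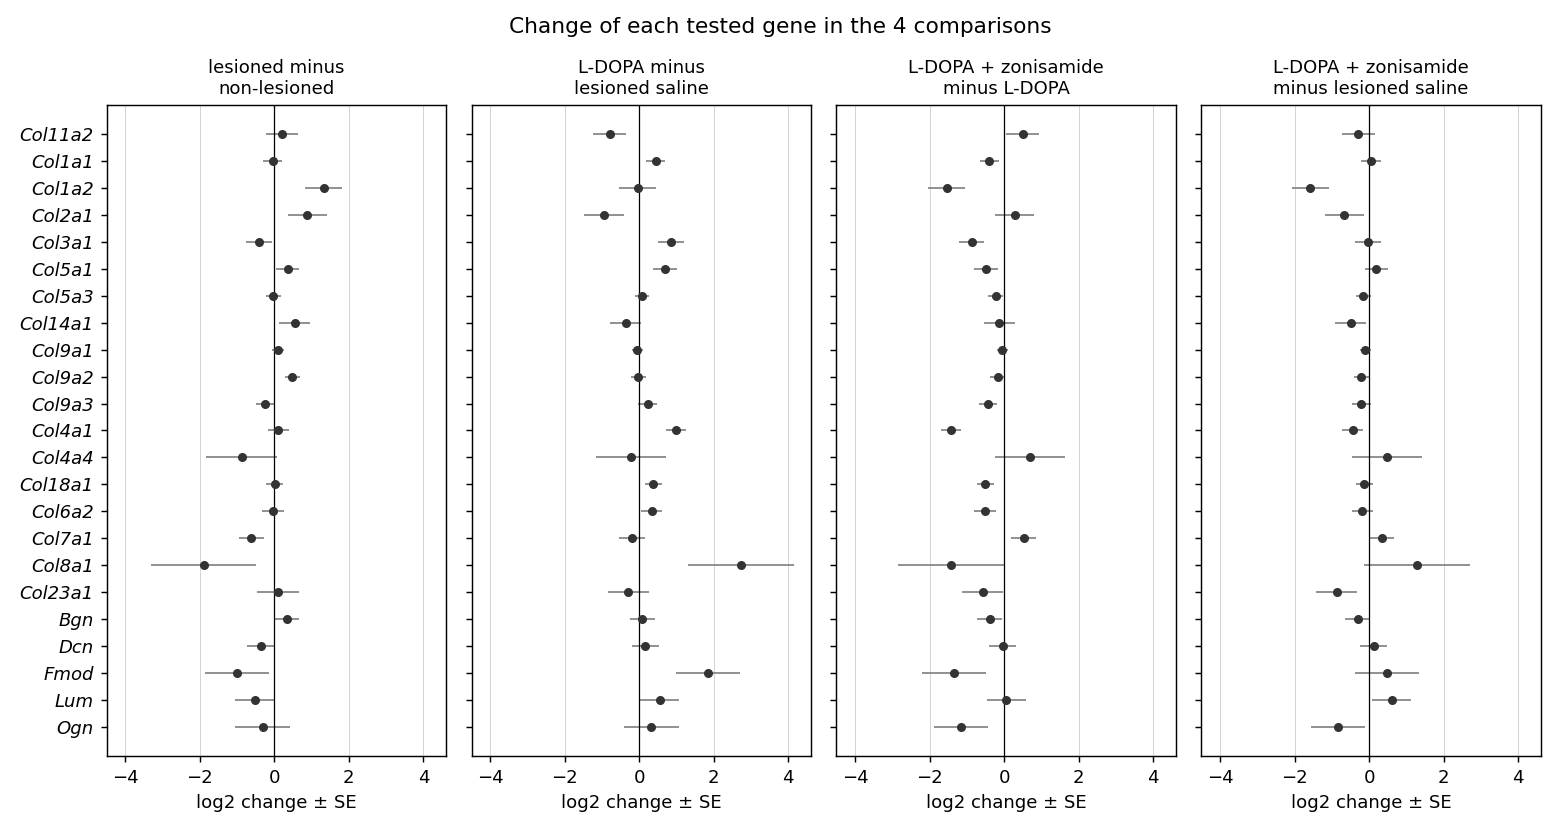
Log2 change (point) with its moderated standard error (bar) of each tested gene in the 4 comparisons, 3 arrays a group. With zonisamide added, 18 of 23 points lie below 0, with Col1a2 and Col4a1 among the farthest, and the widest bars belong to Col8a1.

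Among basement membrane collagens, Col4a1, which encodes the alpha 1 chain of type IV collagen found in nearly all basement membranes, had the smallest p values. Its levels were -0.43, -0.23 and -0.51 on the non-lesioned side and -0.08, -0.42 and -0.33 in lesioned saline. They were -0.00, 1.10 and 1.02 with L-DOPA and -0.59, -0.59 and -0.97 with L-DOPA and zonisamide. The L-DOPA arrays lay above all others, 2 of them by more than 1 unit, while replicate 1 lay just above lesioned saline. The log2 change with L-DOPA was 0.98 ± 0.27 (SE), a fold of 1.97 (adjusted p = 0.192, limma), and with zonisamide added it was -1.42 ± 0.27, 2.68-fold lower (adjusted p = 0.0605). Neither passed, and over the alternatives the adjusted p ran from 0.0190 to 1.00 for L-DOPA and from 0.00797 to 0.741 for zonisamide. Both lowest values came without replicate 1 of L-DOPA. Within slides the change with zonisamide was -0.59, -1.69 and -1.99, lower in 3 of 3 pairs, and with L-DOPA it was 0.08 on slide 1 and 1.51 on slide 2.

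Replicates 2 and 3 of L-DOPA, where Col4a1 was highest, were also the L-DOPA arrays high in choroid plexus markers. Col4a1 was -0.51 on replicate 3 of the non-lesioned side and -0.97 on replicate 3 of L-DOPA with zonisamide, which carried summed marker levels of 136 and 109. No lesioned saline array was high in these markers. Without all 4 of the arrays high in them the changes with L-DOPA and with zonisamide were 0.27 and -0.59, where 1 L-DOPA array remains. With the choroid plexus marker mean as a covariate they were 0.94 (adjusted p = 0.521) and -1.40 (adjusted p = 0.109), and with the meningeal mean 0.79 (adjusted p = 0.518) and -1.19 (adjusted p = 0.304). The part of these tissues in the result was not tested beyond these fits. A dimmer Col4a1 probe gave 0.04 ± 0.40 with L-DOPA and -0.63 ± 0.40 with zonisamide, so that the probes disagree for L-DOPA. Lesion and both drugs gave 0.11 ± 0.27 and -0.44 ± 0.27 for the main probe.

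Col4a4, a chain of the specialised type IV network of the kidney and inner ear, was above background on 8 of 12 arrays and on all 3 of the non-lesioned side alone, with levels from -9.03 to -4.30. Both extremes fell on slide 1. In the fit to all 12 arrays none of its changes exceeded its error, with standard errors of 0.95. It entered the test only through the non-lesioned side, where its mean was highest. Its lesion value of -0.87 ± 0.95 is therefore a description only. Without the 4 arrays high in choroid plexus markers its L-DOPA and zonisamide changes were -2.44 and 3.63. Both rest on replicate 1 of L-DOPA, at -9.03. Col18a1 encodes a basement membrane collagen whose end fragment is endostatin. It stood at -0.60, -0.71 and -0.82 on the non-lesioned side and -0.80, -0.70 and -0.58 in lesioned saline, at -0.67, -0.22 and -0.04 with L-DOPA and at -1.30, -0.67 and -0.50 with zonisamide. The L-DOPA and zonisamide arrays overlap. Its changes were 0.02 ± 0.23 with the lesion, 0.38 ± 0.23 with L-DOPA, -0.51 ± 0.23 when zonisamide was added (unadjusted p = 0.0481 and adjusted p = 0.397 by limma) and -0.13 ± 0.23 for both drugs, with -0.63, -0.45 and -0.46 for zonisamide within slides. The L-DOPA and zonisamide changes were 0.02 and -0.31 without the 4 arrays.

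Type I collagen, the main fibre of skin, bone and the outer vessel wall, is built from 2 chains of Col1a1 and 1 of Col1a2. Col1a1 had a pair of probes that disagree. The probe with the higher mean signal (1 spot) gave -1.58, -1.59 and -1.56 on the non-lesioned side, -1.37, -1.86 and -1.62 in lesioned saline, -1.45, -1.28 and -0.78 with L-DOPA and -1.51, -2.08 and -1.12 with zonisamide. These groups overlap, and its changes were -0.04 ± 0.26 with the lesion, 0.45 ± 0.26 with L-DOPA, -0.40 ± 0.26 when zonisamide was added and 0.05 ± 0.26 with both drugs.

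The other Col1a1 probe, with 2 spots, separated the L-DOPA arrays from all others. It gave -2.22, -2.12 and -1.92 on the non-lesioned side, -1.57, -2.10 and -1.94 in lesioned saline, -1.17, -0.70 and -0.10 with L-DOPA and -1.99, -2.41 and -2.12 with zonisamide. Fitted with each probe as its own feature, a choice made after the values were seen, its change with L-DOPA was 1.21 ± 0.26 (adjusted p = 0.0910, limma), which did not pass, and with zonisamide it fell by 1.51 ± 0.26 (adjusted p = 0.0407). With the replicate number as a block the latter adjusted p was 0.0772. Over 18 alternatives it ran from 0.0176 to 0.569 and passed in 2, without replicate 1 of L-DOPA and with slide as a random block. Leaving out any other array ended the call, with adjusted p of 0.0511 to 0.152. Without the 4 arrays high in choroid plexus markers its changes were 0.70 and -1.03.

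Col1a2 was -1.36, -2.34 and -1.93 on the non-lesioned side, -0.48, -1.25 and 0.08 in lesioned saline, -0.40, -0.69 and -0.68 with L-DOPA and -2.44, -0.97 and -2.97 with zonisamide. Lesioned saline lay above the non-lesioned side on all arrays, and zonisamide below L-DOPA on all arrays. The changes were 1.33 ± 0.50 with the lesion (adjusted p = 0.552, limma), -0.04 ± 0.50 with L-DOPA, -1.54 ± 0.50 when zonisamide was added (adjusted p = 0.235) and -1.58 ± 0.50 for both drugs (adjusted p = 0.633). Within slides zonisamide gave -2.04, -0.28 and -2.30, and both drugs gave -1.96 on slide 1 and 0.28, the opposite sign, on slide 2. The zonisamide and both-drug changes were -1.30 and -1.15 without the 4 arrays. This pattern differs from that of both Col1a1 probes in its lesion value. It also differs with both drugs, where the Col1a1 probes gave 0.05 and -0.30, and with L-DOPA, where they gave 0.45 and 1.21. These differences between genes were not tested.

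Col3a1, the type III collagen of vessel walls, was -2.81, -2.55 and -2.15 on the non-lesioned side, -2.59, -3.26 and -2.92 in lesioned saline, -2.48, -1.55 and -2.20 with L-DOPA and -3.23, -3.34 and -2.26 with zonisamide. The L-DOPA arrays lay above lesioned saline, with replicate 2 the highest. Its changes were -0.42 ± 0.34, 0.85 ± 0.34 (adjusted p = 0.381), -0.87 ± 0.34 (adjusted p = 0.329, limma) and -0.02 ± 0.34 in the order lesion, L-DOPA, zonisamide and both drugs. Within slides L-DOPA gave 0.11 and 1.71 and zonisamide -0.75, -1.79 and -0.06, and without the 4 arrays the L-DOPA change was 0.44 and that with zonisamide -0.81. Col5a1, a minor chain that sets fibril diameter, was -4.19, -4.12 and -4.65 with L-DOPA and -4.66, -5.02 and -5.35 in lesioned saline, groups that touch but do not overlap, and its change was 0.69 ± 0.32 (adjusted p = 0.456, limma).

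**Figure D3:**
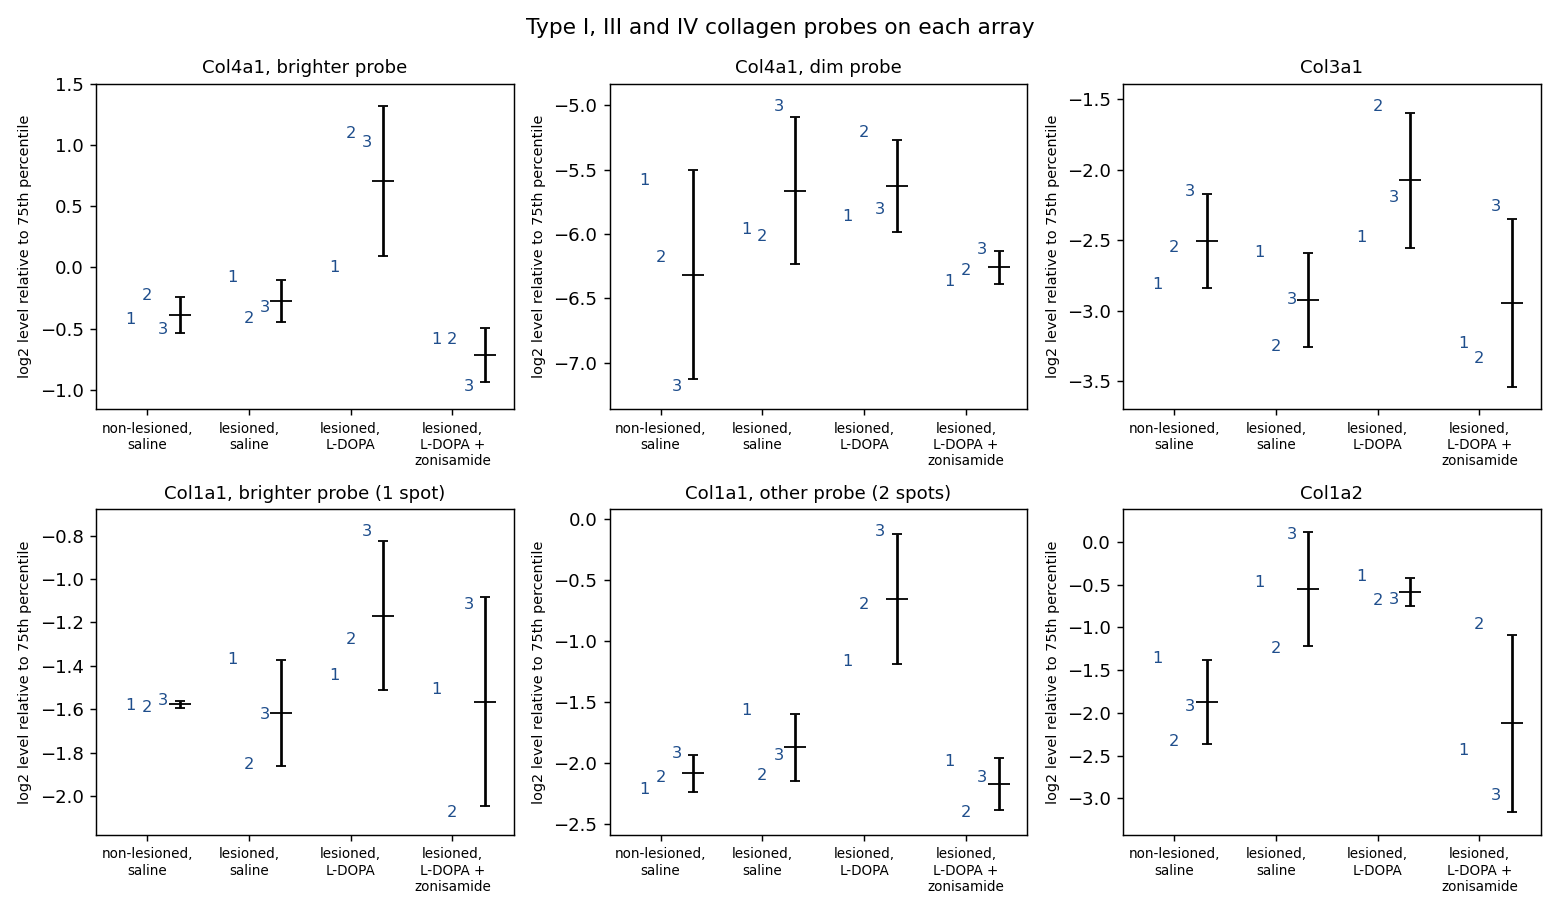
Log2 level relative to each array's 75th percentile for the type I, III and IV collagen probes, with each array drawn as its replicate number and the group mean ± SD (n = 3) beside it. Vertical scales differ between panels. The other Col1a1 probe and the brighter Col4a1 probe have their highest levels on L-DOPA arrays, while the dim Col4a1 probe and the brighter Col1a1 probe overlap between L-DOPA and lesioned saline.

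The L-DOPA values of the cartilage-type fibrillar genes were set by 1 array. Col11a2 was 3.62, 2.90 and 1.35 with L-DOPA, where the other 9 arrays lay between 3.00 and 3.54, and its second probe gave -0.14, -0.36 and -0.23 with L-DOPA, so the low value of replicate 3 stood on 1 probe only. Its L-DOPA change was -0.79 ± 0.44, and 0.20 without the 4 arrays. Its zonisamide change was 0.50 ± 0.44, and -0.47 without them. Col2a1, the collagen of cartilage, was -3.48, -3.51 and -5.73 with L-DOPA, again with replicate 3 lowest, a change of -0.94 ± 0.53, and -0.18 without the 4 arrays. Lesioned saline, at -3.18, -3.59 and -3.12, lay above the non-lesioned side at -4.43, -4.01 and -4.12, a change of 0.89 ± 0.53 (adjusted p = 0.657, limma), and with both drugs it was -0.66 ± 0.53. Col5a3 varied by 0.79 over the 12 arrays, and its changes lay between -0.23 and 0.07.

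Fibril-associated collagens, which sit on the surface of fibrils, had 0 calls. Col9a2, a chain of type IX collagen, was -0.83, -0.07 and -0.44 on the non-lesioned side and -0.06, 0.00 and 0.15 in lesioned saline, which did not overlap, a change of 0.48 ± 0.20 (unadjusted p = 0.0373 and adjusted p = 0.577 by limma). Its drug changes were -0.03, -0.18 and -0.20. Col9a1 varied by 0.43 over the 12 arrays on the probe with the highest signal. Its other probes, both dim, were lower with zonisamide by -0.92 ± 0.31 and -0.82 ± 0.29, against -0.05 ± 0.15 for the first, and none passed. Col9a3 was -0.43 ± 0.25 with zonisamide (adjusted p = 0.539, limma). Col14a1 ranged from -6.02 to -4.02, both on the non-lesioned side, and gave 0.54 ± 0.42 for the lesion and -0.49 ± 0.42 for both drugs.

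Of the beaded filament collagens Col6a2, a chain of type VI collagen, was tested. It was -0.99, 0.03 and -0.76 with L-DOPA and between -1.29 and -0.55 on the other arrays, with replicate 2 of L-DOPA the highest, and its zonisamide change was -0.52 ± 0.29 (adjusted p = 0.518, limma), or -0.27 without the 4 arrays. Col7a1, the anchoring fibril collagen, was -0.61 ± 0.34 on the lesioned side and 0.53 ± 0.34 with zonisamide. Col23a1, a membrane collagen, was above background on 6 of 12 arrays, on all 3 of lesioned saline and 1 of 3 in each other group. It entered the test only through lesioned saline, where its mean was highest, so that its value of -0.87 ± 0.55 with both drugs, measured against that group, is a description only.

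Col8a1, a short-chain collagen of vessel walls and of the corneal basement membrane, spread most widely of all members, over 5.49 units. Its levels were -5.82, -6.59 and -1.22 on the non-lesioned side, -6.71, -6.22 and -6.39 in lesioned saline, -6.10, -1.67 and -3.38 with L-DOPA and -5.64, -6.16 and -3.66 with zonisamide. The 4 highest arrays were the 4 high in choroid plexus markers. Its changes were -1.90 ± 1.42 with the lesion, 2.72 ± 1.42 with L-DOPA (adjusted p = 0.518, limma), -1.43 ± 1.42 when zonisamide was added and 1.29 ± 1.42 with both drugs. Without those arrays they were -0.24, 0.34, 0.21 and 0.54 in the same order. The part of choroid plexus in these values was not tested further.

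The small leucine-rich proteoglycans were higher with L-DOPA in 5 of 5 genes, none of which passed, with a median of 0.33, though Dcn, Bgn and Ogn were lower with either marker covariate or without the 4 arrays high in choroid plexus markers. Fmod encodes fibromodulin, which binds fibrillar collagen and guides fibril assembly. It was -1.36, -2.07 and 0.81 on the non-lesioned side, -1.93, -1.61 and -2.06 in lesioned saline, -1.76, 1.53 and 0.14 with L-DOPA and -1.63, -1.92 and -0.58 with zonisamide. The 4 highest were again the 4 arrays high in choroid plexus markers. The changes were -0.99 ± 0.86 with the lesion, 1.84 ± 0.86 with L-DOPA (adjusted p = 0.462, limma), -1.35 ± 0.86 when zonisamide was added and 0.49 ± 0.86 with both drugs. Without those arrays they were -0.15, 0.11, -0.02 and 0.09.

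Ogn, which encodes osteoglycin (mimecan), was -3.11, -2.79 and 0.02 on the non-lesioned side, -2.20, -2.00 and -2.62 in lesioned saline, -2.39, -0.93 and -2.52 with L-DOPA and -3.58, -2.98 and -2.76 with zonisamide. Its 2 highest arrays were the 2 highest in summed meningeal markers. The zonisamide arrays lay below both the L-DOPA and the lesioned saline arrays. The changes were -0.31 ± 0.73, 0.33 ± 0.73, -1.16 ± 0.73 (adjusted p = 0.585, limma) and -0.83 ± 0.73 in the order lesion, L-DOPA, zonisamide and both drugs. Without the 4 arrays the last 2 were -0.89 and -1.01, while the lesion value turned to 0.68.

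Dcn encodes decorin, which binds collagen fibrils and TGF-beta, and its probe had 10 spots an array. It was -2.12, -2.54 and -1.02 on the non-lesioned side and between -2.59 and -1.75 on the 9 others. Replicate 3 of the non-lesioned side stood above them all. Its changes were -0.36 ± 0.36, 0.16 ± 0.36, -0.03 ± 0.36 and 0.13 ± 0.36 in the same order, with 95% intervals of -0.64 to 0.96 for L-DOPA and -0.83 to 0.77 for zonisamide. Bgn, the gene of biglycan, was 0.55, 1.18 and 1.12 on the non-lesioned side, 1.39, 1.19 and 1.29 in lesioned saline, 0.79, 2.26 and 1.05 with L-DOPA and 1.01, 0.84 and 1.09 with zonisamide. Replicate 2 of L-DOPA was the highest. Its changes were 0.34 ± 0.34, 0.08 ± 0.34, -0.39 ± 0.34 and -0.31 ± 0.34 in the same order. The L-DOPA change was -0.50 and that with zonisamide 0.13 without the 4 arrays. A dimmer Bgn probe gave 0.96 ± 0.57, -0.27 ± 0.57, -0.97 ± 0.57 and -1.24 ± 0.57, none of which passed. Lum, the gene of lumican, was above background on 8 of 12 arrays, on all 3 of the non-lesioned side alone, and ranged from -7.99 to -5.61, with changes of -0.52 ± 0.52, 0.55 ± 0.52, 0.06 ± 0.52 and 0.61 ± 0.52. Lum entered the test only through the non-lesioned side, so that its lesion value is a description only.

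**Figure D4:**
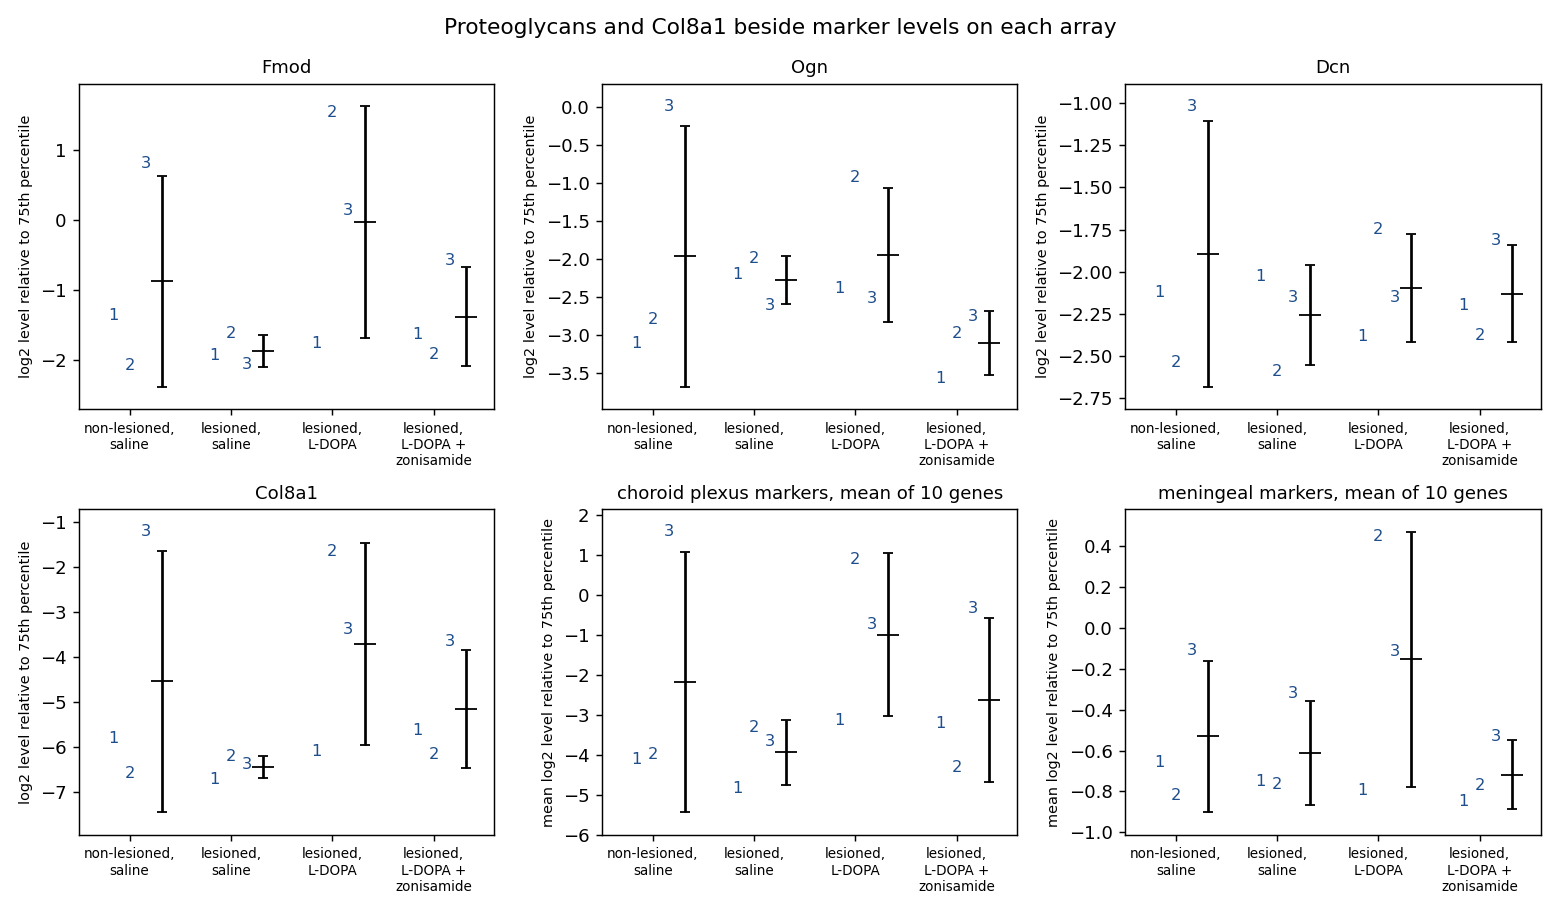
Log2 level relative to each array's 75th percentile for Fmod, Ogn, Dcn and Col8a1, and the mean log2 level of the tested choroid plexus and meningeal markers, with each array drawn as its replicate number and the group mean ± SD (n = 3) beside it. Vertical scales differ between panels. The same 4 arrays, replicate 3 of the non-lesioned side, replicates 2 and 3 of L-DOPA and replicate 3 of L-DOPA with zonisamide, are the highest for Fmod, for Col8a1 and for the choroid plexus mean, in differing order.

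Genes that make, bind or regulate collagen were given by lists. Of the TGF-beta family and its matrix targets 9 of 18 were tested. Tgfb1, the growth factor that induces fibrillar collagens in many cell types, passed with L-DOPA. It was -4.79, -4.84 and -4.91 in lesioned saline, -3.59, -2.59 and -2.73 with L-DOPA and -4.28, -4.96 and -4.18 with zonisamide. The 3 L-DOPA arrays lay above all others of these groups. It rose by 1.88 ± 0.33 with L-DOPA (adjusted p = 0.0478, limma), and its zonisamide value was -1.51 ± 0.33 (adjusted p = 0.0844). The L-DOPA call held in 7 of 26 alternatives. Leaving out any array of lesioned saline, or replicate 2 or 3 of L-DOPA, ended it, with adjusted p of 0.155 to 0.183. It also ended without replicate 1 or 2 of the non-lesioned side, at 0.0606 and 0.0700, and without replicate 1, 2 or 3 of L-DOPA with zonisamide, at 0.0661, 0.0518 and 0.0595. With the choroid plexus or the meningeal covariate the L-DOPA call ended as well, at 0.236 and 0.186 (limma). The replicate block (0.115), slide as a fixed block (0.342) and the compared groups alone (0.0932) ended it too. So did normexp (0.0556), no filter on dim probes (0.0732) and the trended robust prior (0.0518). Without the 4 arrays high in choroid plexus markers the changes were 1.26 and -1.03. On the lesioned side Fn1, the gene of fibronectin, was 1.61 ± 0.44 (adjusted p = 0.468) and Tgfb2 -0.89 ± 0.34, and with both drugs Ccn2 was -0.67 ± 0.28 and Fn1 -0.94 ± 0.44. The list was higher in 7 of 9 genes with L-DOPA and lower in 8 of 9 with zonisamide.

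Of the enzymes and chaperones that process collagen, 19 of 30 were tested and 0 passed in any comparison. With zonisamide 15 of 19 were lower, with a median of -0.24, and P4ha1, a subunit of the prolyl hydroxylase that stabilises the helix, was -0.47 ± 0.15 (adjusted p = 0.235, limma) and the collagen chaperone Sparc -0.60 ± 0.21. The smallest p values elsewhere were those of the cross-linking oxidase Loxl3 (0.61 ± 0.16) and the collagen glycosyltransferase Colgalt1 (0.34 ± 0.16) for the lesion. With L-DOPA they belonged to the oxidase Loxl1 (0.98 ± 0.38) and P3h4 (0.47 ± 0.20), and with both drugs to Pcolce (-0.39 ± 0.25) and P3h1 (-0.33 ± 0.21). The list was higher in 11 of 19 genes for the lesion and for L-DOPA, with medians of 0.02 and 0.01, and lower in 17 of 19 with both drugs.

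Of the collagen receptors 6 of 10 were tested and 0 passed. All 6 were higher on the lesioned side, led by the collagen uptake receptor Mrc2 (0.91 ± 0.21, adjusted p = 0.306, limma) and the integrin Itga1 (0.29 ± 0.27), and all 6 were lower with zonisamide, led by the integrin Itga10 (-0.81 ± 0.27) and Mrc2 (-0.44 ± 0.21). L-DOPA gave 0.69 ± 0.27 for Itga10 and 0.76 ± 0.33 for the receptor kinase Ddr1, and both drugs -0.52 ± 0.27 for Itga1 and -0.20 ± 0.21 for Mrc2. Other basement membrane genes, the laminins and nidogens with 9 of 15 tested, had 0 calls and were lower in 8 of 9 with zonisamide. The laminin chain Lamb3 was -0.86 ± 0.21 with L-DOPA (adjusted p = 0.141) and 0.79 ± 0.21 with zonisamide (adjusted p = 0.146, limma), opposite in sign to Col4a1 in both. Lamb2 was -0.69 ± 0.21 with zonisamide and -0.70 ± 0.21 with both drugs, Lamb1 was 0.52 ± 0.23 with L-DOPA, Lamc1 was -0.24 ± 0.13 with both drugs, and Lamb2 was 0.34 ± 0.21 on the lesioned side. Other small leucine-rich proteoglycans, 5 of 12 tested, had 0 calls. Their smallest p values were those of Nyx (0.98 ± 0.53) and Omd (0.52 ± 0.32) for the lesion, Prelp (0.70 ± 0.48) and Tsku (0.60 ± 0.43) for L-DOPA, Tsku (-0.35 ± 0.43) and Prelp (-0.35 ± 0.48) for zonisamide, and Nyx (-0.65 ± 0.53) and Prelp (0.34 ± 0.48) for both drugs.

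Marker lists of other cell types were read in the same comparisons, and none of their genes passed. Choroid plexus markers were lower on the lesioned side in 10 of 10 (median -1.70), higher with L-DOPA in 10 of 10 (2.89), lower with zonisamide in 10 of 10 (-1.56) and higher with both drugs in 10 of 10 (1.38). Meningeal markers were higher with L-DOPA in 8 of 10 (0.33) and lower with zonisamide in 9 of 10 (-0.48). Endothelial markers were higher with L-DOPA in 7 of 11 (0.23) and pericyte and smooth muscle markers lower in 7 of 11 (-0.06). Endothelial markers were lower with zonisamide in 8 of 11 (-0.56) and with both drugs in 11 of 11 (-0.35), and pericyte and smooth muscle markers in 10 of 11 (-0.50) and 11 of 11 (-0.44). On the lesioned side endothelial markers were higher in 9 of 11 and pericyte and smooth muscle markers in 10 of 11. Blood markers were higher with L-DOPA in 6 of 6 (0.49) and lower with zonisamide in 6 of 6 (-0.84). Striatal neuron markers were higher in 5 of 8 with the lesion (0.05), lower in 6 of 8 with L-DOPA (-0.23), higher in 4 of 8 with zonisamide (0.07) and lower in 5 of 8 with both drugs (-0.09). The summed endothelial level was 4.98 to 7.05 on the non-lesioned side, 6.25 to 7.87 in lesioned saline, 7.83 to 11.0 with L-DOPA and 4.38 to 6.33 with zonisamide. The part of vessel cells in the collagen values was not tested.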

How the data were processed

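Per the file headers, the authors extracted the scans with Feature Extraction 10.7.3.1 of Agilent (10.7 in the submitters' processing notes). Per the file headers the processed signal is an intensity with background subtracted, not scaled between arrays. The deposited median spot and background intensity served the alternative with normexp only. Of 62976 spots, 4259 were controls. Outlier spots were left out, log2 signals of a probe averaged, and each array's 75th percentile over non-control spots subtracted. A probe entered the test where some group had it well above background on each of its 3 arrays, in 0.5 or more of the spots. The probe with the highest mean signal stood for a gene, and genes were named through RefSeq accessions (GRCr8). The probe design used an older assembly, so no probe positions are given.

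One model in limma 3.58.1 (R 4.3.3, with data.table, version 1.17.8) was fitted to all 12 arrays and 4 groups with 8 residual degrees of freedom. Tests are two-sided, with Benjamini-Hochberg adjustment over 19412 features and a threshold of 0.05. Errors are moderated standard errors. An exact permutation test of 3 against 3 arrays cannot go below p = 0.1 and was not run. The script was tested on simulated data.

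The members, lists and tests were chosen with earlier results of these data known. Genes named were the 6 members of smallest p in each comparison, 12 fixed genes (10 of which were tested) in every comparison, and of each related list those that passed or else the 2 of smallest p. Some genes that this rule names are not reported here. Others named, such as members set by 1 array, were chosen after their values were seen.

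The arrays came from 5 slides. Slide 1 held replicate 1 of all groups, slide 2 replicate 2 of the 3 lesioned groups, slide 3 replicate 3 of the L-DOPA groups beside the second non-lesioned array, and the other arrays had a slide each. Deviations of same-numbered arrays correlated at 0.37, 0.19 and 0.25 in the zonisamide comparison. Those pairs also share slides, so that number and slide cannot be told apart there. The replicate block was fitted to the numbers of all 4 groups and is not a paired test of zonisamide alone. Alternatives were quantile normalization, normexp (offset 50), no or a stricter filter on dim probes, averaging a gene's probes, fitting the compared groups alone, a trended robust prior, array weights, replicate and slide blocks, choroid plexus and meningeal marker means as covariates, and leaving out each array. Each probe as its own feature, and the fit without the 4 arrays highest in choroid plexus markers, were added after the data were seen.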

Additional observations from a re-analysis of the deposited data

How the results depend on the processing

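With 3 arrays a group, the number of arrays limits every value, and the widest standard errors were those of Col8a1 (1.42), Col4a4 (0.95), Fmod (0.86) and Ogn (0.73). The count of members that passed was 1 (Col4a1) in place of 0 for L-DOPA with array weights (adjusted p = 0.0449, limma) and for zonisamide with array weights (0.0487) and with slide as a random block (0.0434). Leaving out each array gave 0 to 1 members for L-DOPA, for zonisamide and for the joint test of the 4 groups, each time with 1 without replicate 1 of L-DOPA, where the adjusted p of Col4a1 was 0.0190 and 0.00797. The L-DOPA median of 0.16 was 0.84 within slide 2, -0.052 within slide 1 and -0.024 without the 4 arrays, and ran from 0.037 to 0.37 when single arrays were left out, and the zonisamide median from -0.46 to -0.19. The lesion median of -0.027 was 0.15 within slide 1. With the replicate number as a block 0 members passed in every comparison, with adjusted p for Col4a1 of 0.260 (L-DOPA) and 0.113 (zonisamide). Beyond the calls named in the report, the block changed no member's call. In the other comparisons same-numbered arrays share a slide only in part (correlations from -0.18 to 0.20).

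The count of all features that passed depended far more on the setting. For L-DOPA, 84 became 446 with array weights, 30 with normexp, 48 without a filter, 34 with the replicate block, 6 with the meningeal covariate, 7 without the 4 arrays and 0 with only the groups compared, with slide as a fixed block or with the choroid plexus covariate, and 2 (without replicate 1 of lesioned saline) to 210 (without replicate 1 of L-DOPA) with 1 array left out. For zonisamide, 93 became 188 with slide as a random block, 59 with quantile normalization, 8 with normexp, 45 without a filter, 13 with the replicate block, 12 with the choroid plexus covariate, 6 without the 4 arrays and 0 with only the groups compared, slide as a fixed block or the meningeal covariate, and 0 (without replicate 2 of L-DOPA with zonisamide) to 253 (without replicate 1 of L-DOPA) with 1 array left out. For the lesion, 0 became 17 without the 4 arrays and 13 when only the third non-lesioned array was left out, and for both drugs it was at most 3.

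Signs of single genes were followed, in each comparison, for the members of smallest p and the fixed genes only. Among the log2 changes of these genes, 80 changed sign under another setting and 3 on a gene's other probe. Of these, 0 had an adjusted p under 0.05, and the cause was not tested. Members not followed are outside this count. Without the 4 arrays some of them also changed sign, among them Col8a1, Col11a2 and Col2a1 for zonisamide, and others kept it. Values within a slide, each from 1 array a group, are not in the count either, and 55 of 184 of the members' values were opposite in sign to the fit. For the lesion, Col18a1 was -0.049 with quantile normalization, -0.0043 with array weights and -0.044 with slide as a fixed block and -0.037 without the 4 arrays, and Col4a1 was -0.019 with normexp. Col1a1 was 0.086 as the mean of its probes, 0.31 with slide as a fixed block, 0.015 as a random block, 0.052 with the choroid plexus covariate and 0.21 on its other probe. Ogn was 0.042 with array weights, 0.59 with slide as a fixed block, 0.35 with the choroid plexus covariate and 0.68 without the 4 arrays. Dcn was 0.067 and Lum 0.081 with slide as a fixed block, and Dcn 0.075 without the 4 arrays. For L-DOPA, Bgn was -0.095 as the mean of its probes, -0.27 on its other probe, -0.24 with the choroid plexus and -0.28 with the meningeal covariate and -0.50 without the 4 arrays. Col1a2 was 0.19 with array weights, 0.54 and 0.030 with slide as a fixed and a random block, 0.34 with the choroid plexus covariate and 0.15 without the 4 arrays, where Col11a2 was 0.20. Dcn and Ogn were -0.36 and -0.78 with the choroid plexus covariate, -0.25 and -0.44 with the meningeal one, and -0.13 and -0.11 without the 4 arrays. For zonisamide, Dcn was 0.038 with quantile normalization, 0.025 with normexp, 0.26 and 0.47 with the covariates and 0.097 without the 4 arrays. Lum was -0.074 with array weights, -0.058 with the meningeal covariate and -0.48 without the 4 arrays, Bgn was 0.057 with the meningeal covariate and 0.13 without the 4 arrays, and Fmod was 0.16 with the meningeal covariate. For both drugs, Col1a1 was -0.12 as the mean of its probes and with slide as a fixed block, -0.023 with array weights, -0.018 with the choroid plexus covariate, -0.17 without the 4 arrays and -0.30 on its other probe. Col3a1 was 0.13 with quantile normalization and 0.059 with the meningeal covariate. Dcn was -0.11 and Fmod -0.15 with the choroid plexus covariate, and Dcn -0.031 without the 4 arrays.

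With 1 array left out, ranges were followed for the same genes only, the members of smallest p and the fixed genes. Other members are not covered. Ranges that crossed 0 were, for the lesion, -0.028 to 0.97 (Col14a1), -0.038 to 0.074 (Col18a1), -0.69 to 0.075 (Dcn), -0.88 to 0.68 (Ogn) and -0.16 to 0.080 (Col1a1). For L-DOPA they were -0.012 to 0.31 (Dcn), -0.39 to 0.27 (Col1a2), -0.37 to 0.37 (Bgn) and -0.18 to 0.61 (Ogn). For zonisamide they were -0.19 to 0.14 (Dcn), -0.35 to 0.55 (Lum) and -0.68 to 0.058 (Bgn). For both drugs they were -0.36 to 0.17 (Col3a1), -0.17 to 0.30 (Col1a1), -0.040 to 0.25 (Dcn) and -0.29 to 0.11 (Col18a1).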
